A study of Mus musculus with 14 samples.

Results

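The genes described here are 45 genes of ribosome biogenesis, taken as the rows of the deposited count table whose Entrez identifier maps to a given list of mouse symbols, out of 27179 genes in the table. All 45 were found, and all 45 had enough counts to be tested. They were followed in 14 bulk RNA sequencing libraries of C57BL/6 mouse CD4 T cells. Naive cells had been stimulated for 3.5 days with antibodies to CD3 and CD28 bound to the plate, then sorted into Trizol LS, and each library was made from 100 ng of RNA. Th1 cells (n = 5) are helper cells of the type that makes interferon-γ. TfhA (n = 4, replicates 1, 2, 4 and 5) and Tfh5 (n = 5) are 2 cultures toward follicular helper T cells, which aid B cells in the germinal centre. TfhA cells were cultured with an antibody against TGF-β, and Tfh5 cells with 5 ng/ml TGF-β. The series asks how TGF-β acts on the fate of CD4 T cells. Nothing in the labels tells whether the replicates were separate animals or cultures, so p-values measure only how far these libraries spread, which may be technical. Each group enters 2 of the 3 comparisons, so the comparisons share libraries and are not independent of each other.

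Ribosomes are assembled in the nucleolus. RNA polymerase I copies the ribosomal DNA into a long precursor RNA, small nucleolar ribonucleoproteins (snoRNPs) modify it, and many assembly factors fold, cut and export the small and the large subunit. T cells enlarge their nucleoli and make many ribosomes when they leave quiescence after activation, before and while they divide. The 45 genes were grouped by their role in this sequence, from polymerase I to late large subunit factors.

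Library totals ran from 8805921 to 16108059 counts, and the deepest libraries were those of Th1 (13390058 to 16108059). The share of counts on mitochondrially encoded genes was between 4.46% and 6.56% in Th1, between 4.07% and 7.01% in TfhA and between 7.29% and 8.54% in Tfh5. All 8 CD4 T cell markers were detected, with a summed level of between 4894 and 5338 counts-per-million (CPM) in Th1, between 5126 and 5907 in TfhA and between 6925 and 7282 in Tfh5. Markers of other cells also moved between the groups. The 10 myeloid and dendritic cell genes summed to levels between 238 and 301 CPM in Th1, between 65.1 and 122 in TfhA and between 10.8 and 14.3 in Tfh5, with Adgre1 without a count in all 3 groups. The 7 granulocyte and mast cell genes summed to levels between 127 and 189 CPM in Th1, between 23.6 and 31.6 in TfhA and between 57.7 and 122 in Tfh5, and S100a8 and S100a9 had no count in TfhA or Tfh5. For the 9 B cell genes the sum was between 64.8 and 76.0 CPM in Th1, between 78.9 and 98.8 in TfhA and between 193 and 239 in Tfh5. Few genes carried these sums. Means were under 1 CPM for 7 of the 9 B cell genes in Th1 and Tfh5 and 3 in TfhA. The same held for 8 of the 10 myeloid genes in Th1 and Tfh5 (5 in TfhA) and 5 of the 7 granulocyte genes (6 in TfhA). Of 7 B cell genes tested, 2 were higher and 4 lower in Tfh5 than in TfhA (median log2 difference -2.20), opposite to their sum. The 7 CD8 T and NK cell genes summed to levels between 60.5 and 102 CPM in Th1, between 64.2 and 94.7 in TfhA and between 66.7 and 113 in Tfh5, with Ncr1 without a count in all 3 groups. The 6 red cell and platelet genes stayed at 2.17 CPM or less in sum. The part of these markers in the results was not tested. In bulk RNA, fewer cells of a kind and less RNA per cell cannot be told apart.

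Ribosome biogenesis genes were highest in TfhA and, for most members, lowest in Tfh5. The TfhA mean was the highest of the 3 groups for 40 of the 45 genes, against 29.9% of all 13075 tested genes, and the Tfh5 mean was the lowest for 35 of them, against 39.8% of all tested genes. For 24 members every TfhA library lay above every library of both other groups, which held for 8.03% of all tested genes. Summed over the 45 genes, the level was 5133 ± 160 CPM in Th1 (mean ± SD, n = 5), 7208 ± 566 in TfhA (n = 4) and 4524 ± 179 in Tfh5 (n = 5), and the libraries of the 3 groups did not overlap. The individual TfhA libraries stood at 6768, 6830, 7998 and 7236 CPM. Nucleolin (Ncl) supplied much of the spread, since the TfhA sum without it was 5310 ± 259 CPM.

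**Figure D1:**
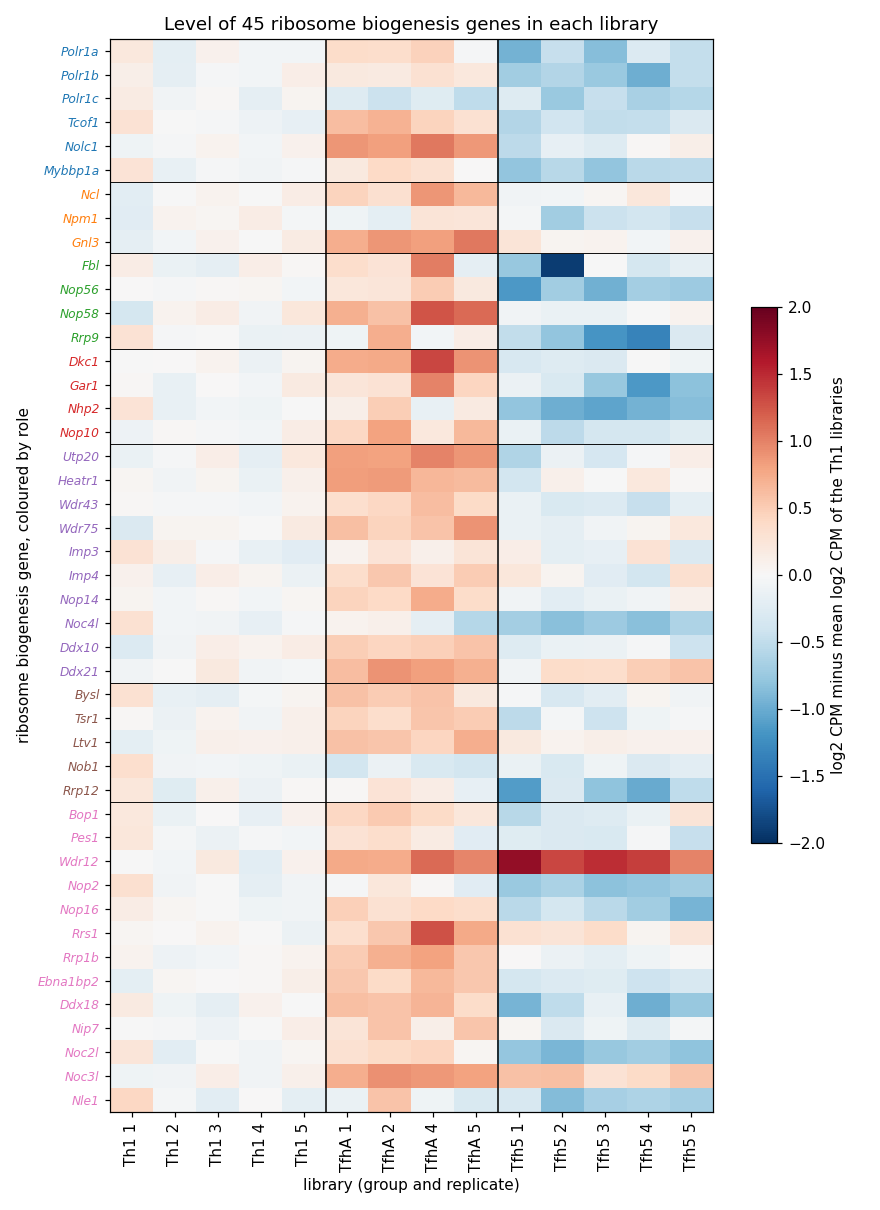
Level of the 45 genes (rows, coloured and separated by role) in each of the 14 libraries (columns), as log2 CPM minus the mean log2 CPM of the Th1 libraries. The 4 TfhA columns are red in most rows, the Tfh5 columns are mostly blue, and Wdr12 is the row with the deepest red in Tfh5.

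With TGF-β against TGF-β blockade (Tfh5 minus TfhA), 41 of the 45 members passed the test as lower in Tfh5 and 1, Wdr12, as higher. Of all tested genes 30.1% passed as lower and 27.4% as higher (edgeR quasi-likelihood test, two-sided, adjusted p under 0.05 by Benjamini-Hochberg over 13075 genes). The 3 members that did not pass were Polr1c, Imp3 and Nob1. The median log2 difference of the members was -0.72, against -0.01 for all tested genes. In 35 members every Tfh5 library was below every TfhA library and in 0 members all were above, against 23.4% and 20.8% of all tested genes. A decrease of at least 2-fold that passed the test was seen in 9 of the 45 members, against 13.1% of all tested genes. With the mitochondrial genes, whose share was higher in Tfh5, left out before scaling, the median of the members was -0.69.

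TfhA, with TGF-β blocked, was also compared with Th1 (TfhA minus Th1), whose TGF-β condition is not given here. In this comparison 30 of the 45 members passed as higher in TfhA, 2 as lower (Polr1c and Nob1) and 13 did not pass. Of all tested genes, 23.2% passed as higher and 21.6% as lower. The median log2 difference was 0.46 for the members and 0.03 for all tested genes. Every TfhA library was above every Th1 library in 28 members and below in 1 (Polr1c), against 19.3% and 18.7% of all tested genes. Each rise was smaller than 2-fold. Of the 2 members that were lower, Nob1 missed the threshold with library totals as the scaling or when TfhA replicate 1, TfhA replicate 5 or Th1 replicate 1 was left out (1 member lower in each case).

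Tfh5 and Th1 were closer. In Tfh5 minus Th1, 21 members passed as lower, 3 as higher (Wdr12, Noc3l and Ddx21) and 21 did not pass, against 33.0% of tested genes lower and 31.5% higher. The share of members called lower (21 of 45) was thus nearer to the background than in Tfh5 minus TfhA. The median log2 difference was -0.21 for the members and -0.01 for all tested genes. Libraries did not overlap in 17 members that were lower and 2 that were higher, against 26.5% and 23.7% of all tested genes.

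**Figure D2:**
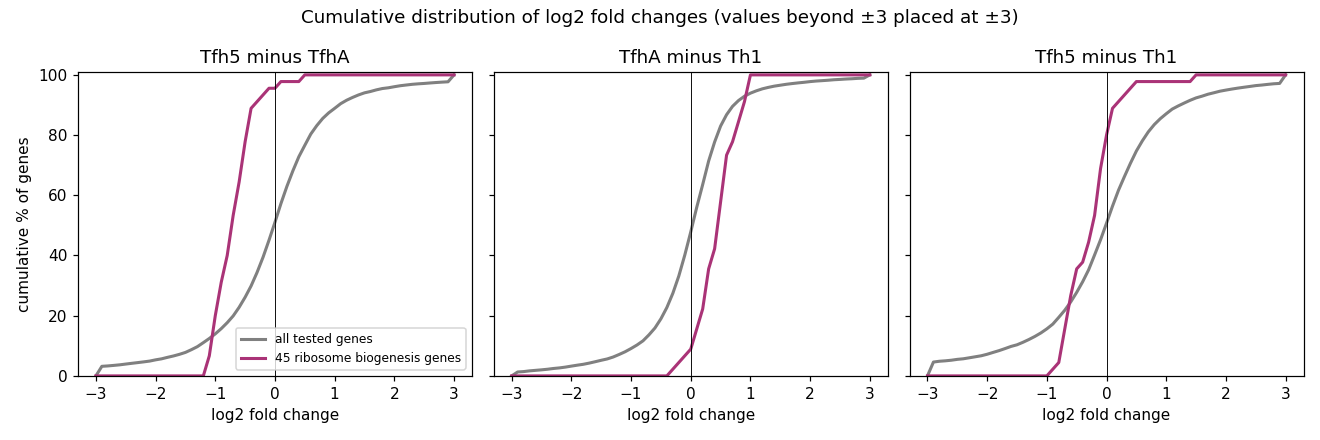
Cumulative share of genes (percent) against the log2 fold change of each comparison, for the 45 ribosome biogenesis genes and for all 13075 tested genes. The curve of the 45 genes lies to the left of all genes in Tfh5 minus TfhA (medians -0.72 and -0.01) and to the right in TfhA minus Th1 (0.46 and 0.03), and is nearer to it in Tfh5 minus Th1 (-0.21 and -0.01).

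The members move together in the first 2 comparisons, so their promoters were read for short motifs. RefSeq promoters on GRCm38.p6, 250 bases before to 50 after the start, were matched for 39 of the 45 genes, and Tcof1, Npm1, Fbl, Rrp12, Bop1 and Rrs1 had no entry. The 3 motifs searched on both strands were CACGTG, the E-box that Myc with Max can bind, CCGGAAGT, an ETS-type motif, and the palindromic motif of NRF1. CACGTG is its own reverse complement, and none of the 3 contains another. CACGTG was in 9 of the 39 promoters (23.1%), namely those of Mybbp1a, Utp20, Wdr43, Imp4, Tsr1, Ltv1, Pes1, Nop2 and Nle1, against 8.99% of the 18458 genes of the table with a promoter and 11.9% of the 9911 tested genes with one. CCGGAAGT was also in 9 (23.1%), namely Polr1c, Gar1, Nhp2, Heatr1, Tsr1, Ltv1, Ebna1bp2, Nip7 and Noc2l, against 5.60% and 9.40%. The NRF1 motif was in 0 of 39, against 1.42% and 2.41%. All 9 members with CACGTG passed as lower in Tfh5 minus TfhA with a median log2 difference of -0.67, and of the 30 with a promoter and no CACGTG 26 were lower, with a median of -0.77. A match is a description of these letters and not of binding. The promoters below are shown 5′ to 3′ with a match in capitals. The first 5 belong to the pair of members with the largest changes of each comparison in the direction most members took, which were Ddx18 and Dkc1 for Tfh5 minus TfhA, Dkc1 and Nop58 for TfhA minus Th1, and Nhp2 and Nop56 for Tfh5 minus Th1. The last pair, chosen after their values were seen, hold CACGTG just after the start. They lie at chr1:121567931-121568230 on the minus strand (Ddx18), chrX:75095604-75095903 on the plus strand (Dkc1), chr1:59684756-59685055 on the plus strand (Nop58), chr11:51619523-51619822 on the plus strand (Nhp2), chr2:130274162-130274461 on the plus strand (Nop56), chr10:88826765-88827064 on the minus strand (Utp20) and chr11:72441077-72441376 on the plus strand (Mybbp1a).
Ddx18: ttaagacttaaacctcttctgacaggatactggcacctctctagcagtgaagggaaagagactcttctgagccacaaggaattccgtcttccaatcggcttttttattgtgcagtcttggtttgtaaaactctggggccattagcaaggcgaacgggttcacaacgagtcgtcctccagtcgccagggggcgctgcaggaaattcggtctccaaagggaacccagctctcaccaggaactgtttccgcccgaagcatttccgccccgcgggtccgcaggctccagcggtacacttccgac
Dkc1: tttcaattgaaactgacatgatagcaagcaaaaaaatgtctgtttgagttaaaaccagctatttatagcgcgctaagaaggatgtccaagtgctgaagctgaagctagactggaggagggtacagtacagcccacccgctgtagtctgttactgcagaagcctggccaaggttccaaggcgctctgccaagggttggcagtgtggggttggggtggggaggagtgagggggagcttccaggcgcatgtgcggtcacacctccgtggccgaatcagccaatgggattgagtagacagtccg
Nop58: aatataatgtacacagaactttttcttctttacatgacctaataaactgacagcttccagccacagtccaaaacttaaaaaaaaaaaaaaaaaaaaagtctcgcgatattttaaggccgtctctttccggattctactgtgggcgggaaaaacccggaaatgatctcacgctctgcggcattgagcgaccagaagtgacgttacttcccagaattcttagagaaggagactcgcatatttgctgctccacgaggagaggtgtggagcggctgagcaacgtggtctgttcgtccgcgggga
Nhp2: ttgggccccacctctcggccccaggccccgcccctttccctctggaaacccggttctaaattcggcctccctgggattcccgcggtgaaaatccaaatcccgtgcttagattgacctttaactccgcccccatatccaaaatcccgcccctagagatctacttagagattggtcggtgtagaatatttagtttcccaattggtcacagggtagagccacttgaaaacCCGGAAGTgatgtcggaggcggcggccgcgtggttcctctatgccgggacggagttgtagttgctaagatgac
Nop56: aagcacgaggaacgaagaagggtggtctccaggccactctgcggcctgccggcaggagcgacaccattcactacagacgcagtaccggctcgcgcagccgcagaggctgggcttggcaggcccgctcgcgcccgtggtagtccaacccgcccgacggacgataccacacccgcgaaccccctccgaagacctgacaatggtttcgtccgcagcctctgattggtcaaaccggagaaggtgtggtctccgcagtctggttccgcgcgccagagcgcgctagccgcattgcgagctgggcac
Utp20: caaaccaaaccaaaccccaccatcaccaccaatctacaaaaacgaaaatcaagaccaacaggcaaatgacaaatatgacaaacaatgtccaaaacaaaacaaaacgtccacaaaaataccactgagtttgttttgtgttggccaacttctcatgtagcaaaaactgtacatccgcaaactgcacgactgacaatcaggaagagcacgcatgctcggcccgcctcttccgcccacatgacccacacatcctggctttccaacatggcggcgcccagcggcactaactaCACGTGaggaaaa
Mybbp1a: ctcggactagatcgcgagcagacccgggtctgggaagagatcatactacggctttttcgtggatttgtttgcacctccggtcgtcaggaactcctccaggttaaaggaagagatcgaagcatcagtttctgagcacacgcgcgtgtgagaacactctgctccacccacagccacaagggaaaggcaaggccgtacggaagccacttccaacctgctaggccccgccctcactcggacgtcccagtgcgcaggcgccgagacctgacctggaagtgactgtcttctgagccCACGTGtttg

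Of the 6 genes of polymerase I transcription, 5 were lower in Tfh5 than in TfhA, with a median log2 difference of -0.90. Of all tested genes, 30.1% passed as lower there. Nolc1, a nucleolar phosphoprotein that links snoRNPs to polymerase I and had the highest level of the 6 (142 CPM per kb of coding sequence), stood at 232, 241, 259, 236 and 259.6 CPM in Th1, 453, 434, 511 and 447 in TfhA and 171, 219, 205, 249 and 265 in Tfh5. All TfhA libraries were well above both other groups, which overlapped each other. Nolc1 fell from TfhA to Tfh5 (log2 difference -1.06 ± 0.10, SE, adjusted p = 3.79e-09), was higher in TfhA than in Th1 (0.91 ± 0.10, adjusted p = 1.09e-07) and did not pass between Tfh5 and Th1 (-0.15 ± 0.10, adjusted p = 0.197). Treacle (Tcof1), a cofactor of ribosomal DNA transcription, was at 151 ± 19 CPM in Th1, 216 ± 26 in TfhA and 110.3 ± 9.0 in Tfh5, and passed in all 3 comparisons. The catalytic core subunits Polr1a and Polr1b had the same order of means as Tcof1 but did not pass in TfhA minus Th1, a difference between genes that was not tested. Polr1a was at 76.7 ± 8.5 CPM in Th1, 94.0 ± 13.1 in TfhA and 51.1 ± 9.8 in Tfh5. Polr1b was at 31.4 ± 2.7, 36.6 ± 1.4 and 19.5 ± 2.4 CPM in the same order. Every TfhA library of Polr1b (35.7 to 38.6 CPM) lay above every Th1 library (27.7 to 34.4). Polr1a and Polr1b were both lower in Tfh5 than in either other group (log2 difference from Th1 -0.59 ± 0.12 and -0.69 ± 0.11). Neither passed in TfhA minus Th1 (0.29 ± 0.13, adjusted p = 0.0609, and 0.22 ± 0.11, adjusted p = 0.12). Polr1a did pass that comparison when TfhA replicate 5 was left out (0.38, adjusted p = 0.0195) or Th1 replicate 1 (0.35, adjusted p = 0.0311), and with library totals as the scaling (0.35, adjusted p = 0.0286). It also passed narrowly without Tfh5 replicate 1 (adjusted p = 0.0414) or 4 (adjusted p = 0.0498) and in a fit of TfhA and Th1 alone (adjusted p = 0.0448). Mybbp1a, a nucleolar Myb-binding protein, had the same course, at 213 ± 25, 249.6 ± 27.9 and 136 ± 13 CPM (TfhA minus Th1 0.23 ± 0.10, adjusted p = 0.0721). It too passed without TfhA replicate 5 (0.29, adjusted p = 0.0313) or Th1 replicate 1 (0.30, adjusted p = 0.0149) or with library totals (0.28, adjusted p = 0.0295). Polr1c, a subunit that polymerase I shares with polymerase III, was the exception of the 6. Its level was highest in Th1 (71.9 ± 6.3 CPM), lower in TfhA (56.0 ± 4.9, log2 difference -0.36 ± 0.11, adjusted p = 0.00805) and 49.8 ± 6.6 CPM in Tfh5 (Tfh5 minus TfhA -0.17 ± 0.11, adjusted p = 0.18). Without Tfh5 replicate 1 that last difference passed (-0.24, adjusted p = 0.0478).

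All 3 nucleolar scaffold genes fell from TfhA to Tfh5 (median log2 difference -0.56), where 30.1% of all tested genes passed as lower. Nucleolin (Ncl), an abundant RNA-binding protein of the nucleolus, was the most abundant of all 45 members at 685 CPM per kb of coding sequence. Its libraries read 1093, 1246, 1323, 1258 and 1399.5 CPM in Th1, 1708, 1581, 2324 and 1980.5 in TfhA and 1205, 1216, 1288, 1470.1 and 1260.3 in Tfh5. TfhA lay above the other groups without overlap, and Tfh5 minus Th1 did not pass (log2 difference 0.03 ± 0.10, adjusted p = 0.83). The Ncl difference was -0.56 ± 0.11 for Tfh5 minus TfhA (adjusted p = 7.82e-05) and 0.59 ± 0.11 for TfhA minus Th1 (adjusted p = 7.87e-05). Nucleostemin (Gnl3), a nucleolar GTPase, read 88.7, 96.9, 107, 100.3 and 112 CPM in Th1, 167, 186, 178 and 208 in TfhA and 121, 105, 106, 97.2 and 106 in Tfh5. Again only the TfhA libraries stood apart, with -0.79 ± 0.09 in Tfh5 minus TfhA (adjusted p = 9.55e-08), 0.87 ± 0.09 in TfhA minus Th1 (adjusted p = 4.14e-08) and 0.08 ± 0.09 in Tfh5 minus Th1 (adjusted p = 0.425). Nucleophosmin (Npm1), a chaperone that shapes the outer nucleolus, was at 585 ± 54 CPM in Th1, 612 ± 95 in TfhA and 448 ± 76 in Tfh5. The TfhA and Th1 levels of Npm1 did not differ beyond their spread (0.06 ± 0.12, adjusted p = 0.687), and that small difference turned to -0.0035 (adjusted p = 0.987) without TfhA replicate 4 and -0.0039 (adjusted p = 0.987) without TfhA replicate 5. Npm1 has 4 near-identical processed pseudogenes, so its count could depend on how reads with several matches were treated.

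Of the 7 role groups, those of the snoRNP proteins had the largest median decreases from TfhA to Tfh5. The 4 genes of box C/D snoRNPs, which guide 2′-O-methylation of ribosomal RNA, all fell from TfhA to Tfh5 with a median log2 difference of -0.99. Of all tested genes, 30.1% passed as lower there. Nop58, a core protein and the gene with the highest level of the 4 (169 CPM per kb of coding sequence), read 169, 226, 239, 205 and 253 CPM in Th1, 354, 325, 517 and 472 in TfhA and 206, 198, 197, 216 and 226 in Tfh5. TfhA replicates 4 and 5 were the highest, and no TfhA library reached down to the other groups, which overlapped. Nop58 gave -1.0 ± 0.12 in Tfh5 minus TfhA (adjusted p = 1.87e-07), 0.93 ± 0.12 in TfhA minus Th1 (adjusted p = 1.17e-06) and -0.07 ± 0.12 in Tfh5 minus Th1 (adjusted p = 0.64). Its partner Nop56 read 106, 104, 108, 109 and 102 CPM in Th1, 123, 126, 151 and 121 in TfhA and 47.7, 65.4, 54.3, 65.8 and 63.8 in Tfh5. The 3 groups did not overlap, and Tfh5 lay farthest from the others. Nop56 gave -1.13 ± 0.10 in Tfh5 minus TfhA (adjusted p = 6.98e-10), 0.30 ± 0.10 in TfhA minus Th1 (adjusted p = 0.0172) and -0.83 ± 0.10 in Tfh5 minus Th1 (adjusted p = 4.42e-08). The rise over Th1 missed the threshold without TfhA replicate 4 (0.22, adjusted p = 0.0864). Rrp9, which binds the U3 snoRNA, was at 15.0 ± 1.9, 17.4 ± 4.9 and 8.82 ± 2.68 CPM in Th1, TfhA and Tfh5, and passed as lower in Tfh5 against both (-0.97 ± 0.20 and -0.76 ± 0.19). Against Th1 its TfhA level gave 0.21 ± 0.19 (adjusted p = 0.402). Fibrillarin (Fbl), the methyltransferase of the complex, is listed at only 5.33 ± 0.54, 7.16 ± 2.61 and 3.73 ± 1.51 CPM, from 898 counts over all 14 libraries. Fbl has a processed pseudogene of 96.9% identity over 984 bases, and a Tulp4 transcript matches 690 bases of Fbl at 99.6% identity. Tulp4 had 2662 counts over all libraries, at means of 15.3, 11.9 and 19.2 CPM in Th1, TfhA and Tfh5. Whether these matches affected the Fbl counts was not tested. The decrease of Fbl from TfhA to Tfh5 (-0.92 ± 0.28, adjusted p = 0.00671) missed the threshold without TfhA replicate 4 (-0.67, adjusted p = 0.0541). The other 2 Fbl comparisons did not pass (0.42 ± 0.27, adjusted p = 0.216, in TfhA minus Th1 and -0.50 ± 0.27, adjusted p = 0.101, in Tfh5 minus Th1), although the last passed without Tfh5 replicate 3 (-0.65, adjusted p = 0.0482).

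The 4 genes of box H/ACA snoRNPs, which turn uridine into pseudouridine and also form part of telomerase, all fell from TfhA to Tfh5. Their libraries did not overlap, and the median log2 difference was -1.10. Of all tested genes, 30.1% passed as lower there, and 23.4% had every Tfh5 library below every TfhA library. Dyskerin (Dkc1), the pseudouridine synthase, read 69.0, 70.0, 72.4, 63.5 and 71.7 CPM in Th1, 116, 117, 175 and 129 in TfhA and 55.7, 58.1, 56.6, 69.0 and 64.9 in Tfh5. TfhA replicate 4 was the highest library, and the lowest TfhA library was still above all others. Dkc1 gave -1.14 ± 0.11 in Tfh5 minus TfhA (adjusted p = 3.42e-09), 0.95 ± 0.11 in TfhA minus Th1 (adjusted p = 1.46e-07) and -0.19 ± 0.11 in Tfh5 minus Th1 (adjusted p = 0.127). Nop10, a short core protein with the highest level of the 4 (404 CPM per kb of coding sequence), read 68.5, 74.4, 72.0, 70.4 and 81.4 CPM in Th1, 97.8, 128, 84.7 and 115 in TfhA and 66.6, 51.2, 57.4, 57.1 and 62.2 in Tfh5. Its groups were ordered TfhA, Th1, Tfh5 without overlap, with -0.85 ± 0.11 in Tfh5 minus TfhA (adjusted p = 3.72e-07), 0.53 ± 0.11 in TfhA minus Th1 (adjusted p = 0.000294) and -0.32 ± 0.10 in Tfh5 minus Th1 (adjusted p = 0.0106). Nhp2, which binds the RNA of the complex, was lowest in Tfh5, at 113 ± 14, 128 ± 24 and 59.6 ± 4.3 CPM. It had the largest decrease of all members from Th1 to Tfh5 (-0.93 ± 0.11, adjusted p = 4.92e-08) and did not pass in TfhA minus Th1 (0.17 ± 0.11, adjusted p = 0.224). Gar1, the partner that helps release the modified RNA, was at 32.0 ± 2.7, 45.7 ± 11.9 and 21.3 ± 6.1 CPM. Its rise from Th1 to TfhA (0.51 ± 0.17, adjusted p = 0.0156) missed the threshold without TfhA replicate 4 (0.32, adjusted p = 0.128), while its decrease from TfhA to Tfh5 was -1.10 ± 0.17 (adjusted p = 5.93e-06).

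**Figure D3:**
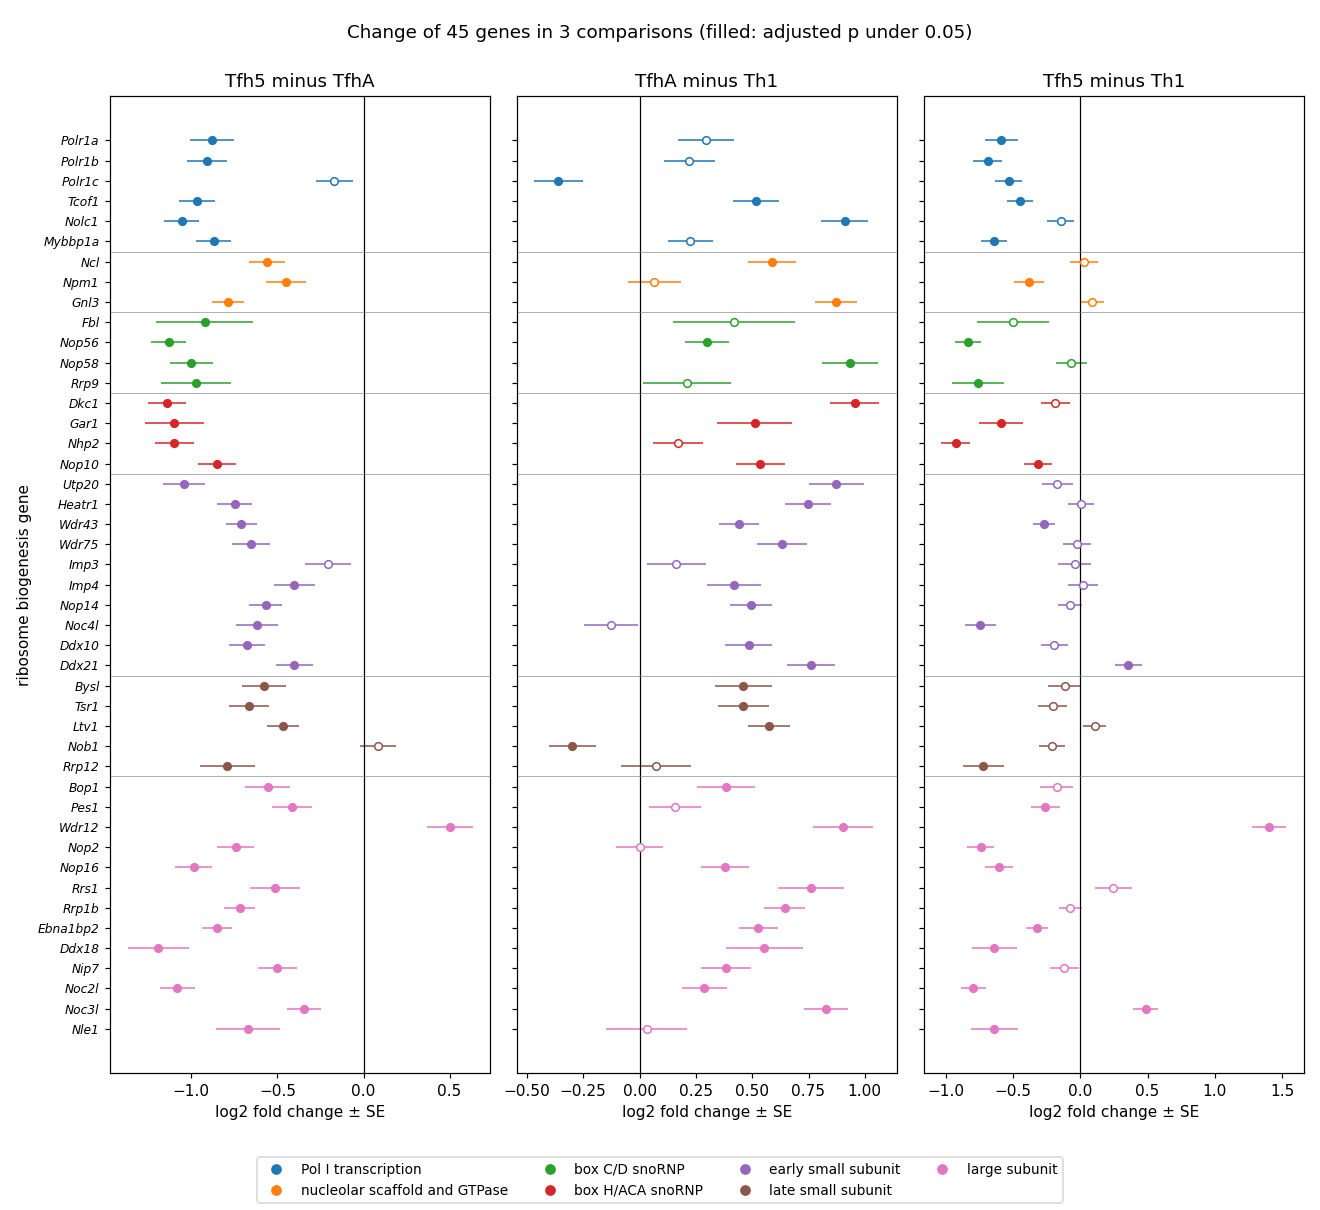
Log2 fold change ± SE of the 45 genes in the 3 comparisons, coloured by role (filled symbols, adjusted p under 0.05). Tfh5 minus TfhA has 41 filled symbols to the left of 0 and 1 to the right (Wdr12), TfhA minus Th1 has 30 to the right and 2 to the left, and Tfh5 minus Th1 has 21 to the left and 3 to the right.

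Most of the 10 early small subunit factors are parts of the SSU processome that forms on the nascent precursor RNA. Of the 10, 9 were lower in Tfh5 than in TfhA (median -0.64), against 30.1% of all tested genes. In TfhA minus Th1, 8 were higher (median 0.49), against 23.2%. Utp20, a very long scaffold protein, read 40.7, 43.9, 48.8, 39.7 and 51.8 CPM in Th1, 79.4, 78.0, 89.3 and 82.8 in TfhA and 29.5, 41.1, 35.3, 44.1 and 49.3 in Tfh5. TfhA was above both others without overlap, with -1.04 ± 0.12 in Tfh5 minus TfhA (adjusted p = 8.92e-08), 0.87 ± 0.12 in TfhA minus Th1 (adjusted p = 2.69e-06) and -0.17 ± 0.12 in Tfh5 minus Th1 (adjusted p = 0.209). Ddx21, an RNA helicase that also binds ribosomal DNA, had the highest level of the 10 (97.2 CPM per kb of coding sequence) and read 181, 189, 219, 182 and 185 CPM in Th1, 291, 356, 336 and 312 in TfhA and 182, 246, 244, 269 and 282 in Tfh5. Its order was TfhA, Tfh5, Th1: Ddx21 fell by less than the median of the group from TfhA to Tfh5 (-0.40 ± 0.11, adjusted p = 0.00239) and was one of the 3 members above Th1 in Tfh5 (0.36 ± 0.10, adjusted p = 0.00354), although Tfh5 replicate 1 lay among the Th1 libraries. Heatr1 (78.5 ± 5.1, 132 ± 10.2 and 78.6 ± 11.1 CPM in Th1, TfhA and Tfh5) and Wdr75 (77.4 ± 8.9, 120.0 ± 16.9 and 76.1 ± 8.7) belong to a subcomplex that acts with polymerase I. Both had differences from Th1 to Tfh5 whose sign changed with the scaling (0.00 ± 0.10, adjusted p = 0.986, and -0.02 ± 0.11, adjusted p = 0.857). Wdr43 of the same subcomplex was at 107 ± 3.4, 145 ± 13 and 88.4 ± 7.5 CPM and passed in all 3 comparisons. Nop14 and the helicase gene Ddx10 were higher in TfhA than in both others and did not pass between Tfh5 and Th1 (-0.08 ± 0.09, adjusted p = 0.477, and -0.19 ± 0.10, adjusted p = 0.0967). Ddx10 did pass there without Th1 replicate 1 (-0.26, adjusted p = 0.0240). Noc4l, which works with Nop14, differed from it: its level was 97.1 ± 12.9 CPM in Th1 and 88.9 ± 17.7 in TfhA (-0.13 ± 0.12, adjusted p = 0.41) and only 57.9 ± 3.9 in Tfh5. Imp3 and Imp4 bind the U3 snoRNA with Mphosph10. Imp4 rose and fell with the group, at 65.5 ± 5.7, 87.6 ± 7.5 and 66.3 ± 13.1 CPM, and did not pass between Tfh5 and Th1 (0.02 ± 0.11, adjusted p = 0.896). Imp3 passed in no comparison (-0.21 ± 0.13, adjusted p = 0.19, in Tfh5 minus TfhA, 0.16 ± 0.13, adjusted p = 0.328, in TfhA minus Th1 and -0.04 ± 0.12, adjusted p = 0.786, in Tfh5 minus Th1).

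The 5 late small subunit factors act on particles that leave the nucleolus for the cytoplasm. Of these, 4 were lower in Tfh5 than in TfhA (median -0.58), against 30.1% of all tested genes. In TfhA minus Th1, 3 were higher and 1 lower, against 23.2% and 21.6%, so the 1 lower is not set apart from its share. Rrp12, a HEAT-repeat export factor with the largest change of the 5, read 25.3, 18.2, 23.0, 19.8 and 22.0 CPM in Th1, 21.9, 26.0, 23.8 and 19.3 in TfhA and 9.90, 17.6, 12.4, 10.7 and 15.1 in Tfh5. Tfh5 lay below both other groups without overlap, and Th1 and TfhA overlapped. Rrp12 gave -0.79 ± 0.16 in Tfh5 minus TfhA (adjusted p = 0.00015), -0.72 ± 0.15 in Tfh5 minus Th1 (adjusted p = 0.000184) and 0.07 ± 0.15 in TfhA minus Th1 (adjusted p = 0.74). Nob1, the nuclease that makes the final cut at the end of 18S ribosomal RNA, had the highest level of the 5 (58.6 CPM per kb of coding sequence) and read 98.9, 74.7, 75.3, 74.2 and 71.6 CPM in Th1, 60.5, 72.0, 63.6 and 60.7 in TfhA and 71.8, 63.1, 73.7, 64.3 and 67.6 in Tfh5. The 3 groups overlapped, and Th1 replicate 1 was the highest library. Nob1 was the member with the smallest change from TfhA to Tfh5 (0.09 ± 0.10, adjusted p = 0.506). Its lower level in TfhA than in Th1 (-0.30 ± 0.10, adjusted p = 0.0218) missed the threshold without Th1 replicate 1 (-0.21, adjusted p = 0.0727). In Tfh5 minus Th1 Nob1 gave -0.21 ± 0.10 (adjusted p = 0.0582), and passed with DESeq2 (adjusted p = 0.0399) or without Th1 replicate 5 (adjusted p = 0.0444) or Tfh5 replicate 1 (adjusted p = 0.0488). Bysl, Tsr1 and Ltv1, which hold the small subunit precursor in an inactive state, were alike: Tfh5 minus TfhA gave -0.58 ± 0.13, -0.67 ± 0.11 and -0.47 ± 0.09 and TfhA minus Th1 gave 0.46 ± 0.12, 0.46 ± 0.11 and 0.57 ± 0.09. None of these 3 passed between Tfh5 and Th1 (-0.12 ± 0.12, -0.21 ± 0.11 and 0.11 ± 0.09, adjusted p = 0.403, 0.102 and 0.305). Exons of Srr on the other strand cover 34.2% of the Tsr1 exons, and exons of Ccnd3 cover 9.37% of those of Bysl, and the sources used here do not give whether counting used strand. Ccnd3 was far more abundant than Bysl and itself was highest in Th1 (490 CPM), lower in TfhA (204 CPM) and lowest in Tfh5 (78.0 CPM).

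Of the 13 large subunit factors, 12 were lower in Tfh5 than in TfhA and 1 was higher (median -0.67), against 30.1% and 27.4% of all tested genes. In TfhA minus Th1, 10 were higher (median 0.38), against 23.2%. Ebna1bp2, the gene with the highest level of the 13 (170 CPM per kb of coding sequence), read 129.6, 152, 149, 150.4 and 161 CPM in Th1, 216, 193, 231 and 215 in TfhA and 116, 122, 126, 111 and 118 in Tfh5. Its groups were ordered TfhA, Th1, Tfh5 without overlap, with -0.85 ± 0.09 in Tfh5 minus TfhA (adjusted p = 6.52e-09), 0.53 ± 0.09 in TfhA minus Th1 (adjusted p = 2.1e-05) and -0.32 ± 0.08 in Tfh5 minus Th1 (adjusted p = 0.00129). Ddx18, an RNA helicase, had the largest decrease of all 45 members from TfhA to Tfh5. Its libraries read 10.4, 8.60, 8.09, 9.64 and 9.06 CPM in Th1, 13.9, 13.5, 14.6 and 11.8 in TfhA and 4.76, 6.42, 8.21, 4.65 and 5.38 in Tfh5. TfhA was above both others, and one Tfh5 library (replicate 3) lay within the Th1 range. Ddx18 gave -1.19 ± 0.18 in Tfh5 minus TfhA (adjusted p = 3.29e-06), 0.55 ± 0.17 in TfhA minus Th1 (adjusted p = 0.0106) and -0.64 ± 0.17 in Tfh5 minus Th1 (adjusted p = 0.00209). A processed pseudogene matches 1984 bases of Ddx18 at 99.3% identity, so its low count is uncertain.

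The pair Noc2l and Noc3l, whose proteins bind each other on large subunit precursors, differed in course. Noc2l was at 91.9 ± 10.8, 112 ± 12 and 52.9 ± 2.8 CPM in Th1, TfhA and Tfh5, below Th1 in every Tfh5 library (-0.80 ± 0.10, adjusted p = 9.18e-08). Noc3l was at 36.4 ± 2.7, 64.7 ± 3.7 and 50.9 ± 4.6 CPM, above Th1 in every Tfh5 library (0.48 ± 0.09, adjusted p = 7.87e-05). From TfhA to Tfh5 both fell, Noc2l by more (-1.08 ± 0.10) than Noc3l (-0.34 ± 0.10), a difference between the 2 genes that was not tested. The rise of Noc2l from Th1 to TfhA (0.29 ± 0.10, adjusted p = 0.0216) missed the threshold without Th1 replicate 2 (0.23, adjusted p = 0.0774), Th1 replicate 4 (0.26, adjusted p = 0.0562), TfhA replicate 2 (0.26, adjusted p = 0.0624) or TfhA replicate 4 (0.24, adjusted p = 0.0717), and without the filter on low counts (0.25, adjusted p = 0.0636). Exons of Samd11 on the other strand cover 20.9% of the Noc2l exons, but Samd11 had only 127 counts in all libraries against 14372 of Noc2l.

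Among the rest of the large subunit factors, Nop16, Rrp1b and Nip7 were lower in Tfh5 than in TfhA (-0.99 ± 0.11, -0.72 ± 0.09 and -0.50 ± 0.11) and higher in TfhA than in Th1 (0.38 ± 0.11, 0.64 ± 0.09 and 0.38 ± 0.11). Against Th1, Nop16 was lower in Tfh5 (-0.61 ± 0.10, adjusted p = 1.47e-05), while Rrp1b (-0.08 ± 0.08, adjusted p = 0.452) and Nip7 (-0.12 ± 0.11, adjusted p = 0.342) did not pass. Rrs1, which helps to insert the 5S ribonucleoprotein, was at 17.7 ± 0.83, 30.1 ± 8.9 and 21.0 ± 1.7 CPM. Its TfhA libraries were spread from 22.2 to 42.5 CPM, and the decrease to Tfh5 (-0.51 ± 0.15, adjusted p = 0.00448) missed the threshold without TfhA replicate 4, the highest one (-0.30, adjusted p = 0.0511). Rrs1 did not pass between Tfh5 and Th1 (0.25 ± 0.14, adjusted p = 0.13), except in a fit of these 2 groups alone (0.27, adjusted p = 0.0380). Nop2, a methyltransferase of the large subunit RNA, and Nle1, a factor that the Mdn1 ATPase pulls off the particle, did not pass in TfhA minus Th1. Nop2 was at 104 ± 15, 104 ± 13 and 62.2 ± 3.0 CPM and Nle1 at 14.4 ± 2.7, 14.7 ± 4.3 and 9.25 ± 1.30 CPM in Th1, TfhA and Tfh5. There Nop2 gave -0.00 ± 0.11 (adjusted p = 1) and Nle1 0.03 ± 0.18 (adjusted p = 0.904), differences whose sign changed when single libraries were left out. Both were lower in Tfh5 than in Th1 (-0.74 ± 0.10 and -0.64 ± 0.17).

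Wdr12 was the 1 member that passed as higher in Tfh5 than in TfhA, where 41 of the others passed as lower. Its protein forms the PeBoW complex with Pes1 and Bop1, which is needed to process the large subunit RNA. Wdr12 read 20.4, 19.6, 23.4, 17.6 and 21.6 CPM in Th1, 34.7, 34.1, 44.9 and 40.0 in TfhA and 69.1, 51.7, 56.8, 53.4 and 40.5 in Tfh5. Every TfhA and Tfh5 library was above every Th1 library, while TfhA and Tfh5 overlapped through TfhA replicate 4 and Tfh5 replicate 5. Wdr12 rose by 1.40 ± 0.13 on the log2 scale from Th1 to Tfh5 (adjusted p = 7.12e-10), by 0.90 ± 0.13 from Th1 to TfhA (adjusted p = 6.68e-06) and by 0.50 ± 0.13 from TfhA to Tfh5 (adjusted p = 0.00253), the last a 1.41-fold difference. Pes1 read 74.3, 61.8, 58.7, 62.4 and 61.3 CPM in Th1, 77.2, 81.2, 71.2 and 54.1 in TfhA and 53.7, 52.2, 51.4, 62.5 and 46.3 in Tfh5. Its ranges overlapped in each pair of groups. Pes1 passed as lower in Tfh5 than in TfhA (-0.42 ± 0.12, adjusted p = 0.00346) and than in Th1 (-0.26 ± 0.11, adjusted p = 0.0407). The difference from Th1 missed the threshold without any 1 of Th1 replicates 1, 2 and 4 and Tfh5 replicates 2, 3 and 5, with adjusted p up to 0.121 (without Th1 replicate 1) or 0.111 (without Tfh5 replicate 5), and also with library totals as the scaling (adjusted p = 0.0674) or without mitochondrial genes (adjusted p = 0.0644). Pes1 did not pass between TfhA and Th1 (0.16 ± 0.12, adjusted p = 0.282). Bop1 read 48.6, 38.1, 42.0, 37.5 and 44.2 CPM in Th1, 55.8, 60.3, 54.3 and 48.8 in TfhA and 28.5, 34.3, 35.0, 38.2 and 50.1 in Tfh5. It fell from TfhA to Tfh5 (-0.56 ± 0.13, adjusted p = 0.000742), with Tfh5 replicate 5 inside the TfhA range, and did not pass between Tfh5 and Th1 (-0.18 ± 0.12, adjusted p = 0.22), although without Tfh5 replicate 5 it did (-0.31, adjusted p = 0.0204). The higher Bop1 level in TfhA than in Th1 (0.38 ± 0.13, adjusted p = 0.0187) missed the threshold without TfhA replicate 2 (0.33, adjusted p = 0.0613), Th1 replicate 2 (0.34, adjusted p = 0.0511) or Th1 replicate 4 (0.34, adjusted p = 0.0541). Per Pes1 count, Wdr12 counts were 0.325 ± 0.051 in Th1, 0.560 ± 0.152 in TfhA and 1.02 ± 0.18 in Tfh5, a ratio chosen after the values were seen and given without a test. Wdr12 has a processed pseudogene of 97.7% identity over 1272 bases and Pes1 has 2, so how reads with several matches were counted could change these levels.

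**Figure D4:**
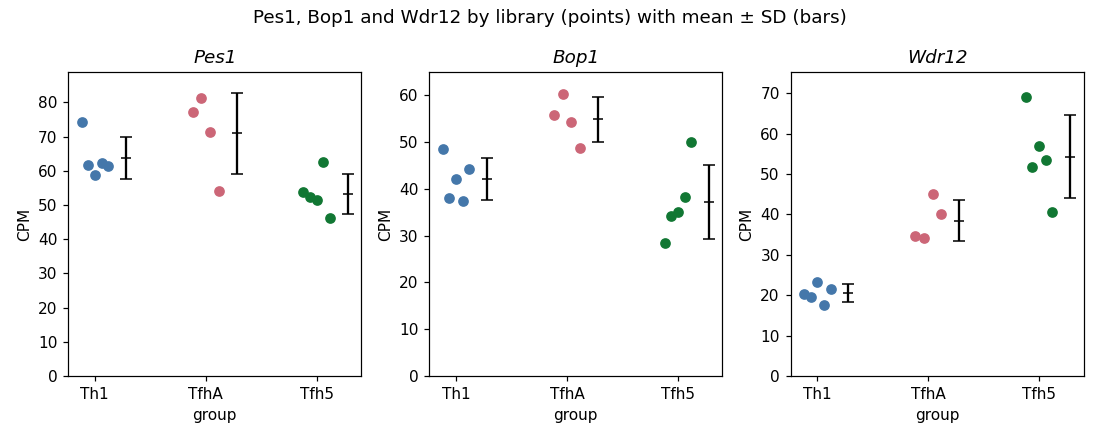
CPM of the PeBoW complex genes Pes1, Bop1 and Wdr12 in each library (points) with the group mean ± SD (bars), on axes that start at 0. Wdr12 goes from 20.5 ± 2.2 CPM in Th1 to 54.3 ± 10.3 in Tfh5, while Pes1 and Bop1 are lowest in Tfh5.

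The 45 genes lie on 18 chromosomes, with 7 on chromosome 1. A pair of neighbours lies within 1 Mb of each other on chromosome 1 (Nop58 and Wdr12, 360 kb apart) and another on chromosome 8 (Nip7 and Nob1, 352 kb apart). In each pair the genes lie on opposite strands and one member went with the majority and the other did not in Tfh5 minus TfhA: Nop58 fell and Wdr12 rose, and Nip7 fell (-0.50 ± 0.11) while Nob1 did not pass. In all, 7 members hold 21 annotated snoRNA genes within their bounds, which are processed from their introns: 5 in Nop56, 4 in Nop58, 3 each in Ncl, Gnl3 and Wdr43, 2 in Tsr1 and 1 in Dkc1. All 7 hosts fell from TfhA to Tfh5 (median log2 difference -0.79) and all 7 rose from Th1 to TfhA (median 0.59). Of all tested genes, 30.1% passed as lower in Tfh5 minus TfhA and 23.2% as higher in TfhA minus Th1. Of the 38 members without a snoRNA gene, 34 fell and 23 rose in these comparisons, with medians of -0.70 and 0.42. Those of the snoRNA genes that have a row in the count table had at most 149 counts each over all libraries, and the others have no row. A kit that selects mRNA does not measure snoRNAs. The 8 members with a near-identical processed pseudogene (Ddx18, Ddx21, Fbl, Imp3, Nop56, Npm1, Pes1 and Wdr12) included Wdr12 and Imp3. Of the other 37, 35 were lower and 0 higher in Tfh5 than in TfhA, with a median of -0.74, and 1 (Noc3l) was higher in Tfh5 than in Th1.

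As counted here, the genes of finished ribosomes did not show the TfhA peak of the factors that build them. Their counts are uncertain, as stated at the end of this paragraph. The 79 cytosolic ribosomal protein genes summed to 26487 ± 1711 CPM in Th1, 23891 ± 1315 in TfhA and 25136 ± 2334 in Tfh5, with overlapping libraries. In Tfh5 minus TfhA 11 passed as higher and 8 as lower, with a median log2 difference of 0.00, against 27.4% and 30.1% of all tested genes. In TfhA minus Th1 3 were higher and 19 lower (median -0.15), against 23.2% and 21.6%. In Tfh5 minus Th1 11 were higher and 21 lower (median -0.16), against 31.5% and 33.0%. Per 1000 ribosomal protein counts there were 194 ± 14 counts of the 45 biogenesis genes in Th1, 303 ± 38 in TfhA and 182 ± 22 in Tfh5. The lowest TfhA library (265) was above the highest of both other groups (213 in Th1 and 211 in Tfh5), and Th1 and Tfh5 overlapped. Among the named ribosomal protein genes were Rps27a, at 36.0 ± 3.7 CPM in TfhA and 17.9 ± 2.1 in Tfh5 (log2 difference -1.01, adjusted p = 4.59e-07), and Rps15a, at 581 ± 104 and 834 ± 147 (0.52, adjusted p = 0.00159). Ribosomal protein genes have many processed copies, and their counts are uncertain for the same reason as above. Some were counted at low levels, such as Rps7 at 22.7 ± 7.0 CPM in Th1. The sums and the ratio to the biogenesis genes share this uncertainty.

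**Figure D5:**
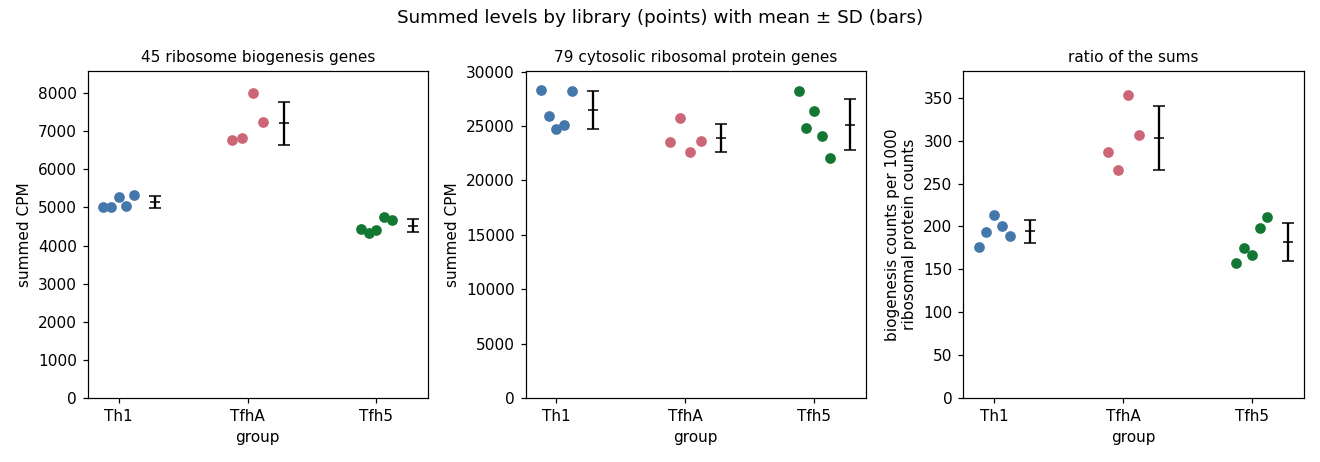
Summed CPM of the 45 ribosome biogenesis genes, summed CPM of 79 cytosolic ribosomal protein genes and the ratio of their counts in each library (points) with the group mean ± SD (bars), on axes that start at 0. The biogenesis sum is 6768 to 7998 CPM in TfhA and at most 5335 in the other groups, and the ribosomal protein sums overlap.

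Other genes of ribosome biogenesis, listed from general knowledge and not among the 45, were counted in 5 lists with 134 tested genes in all. These lists were chosen with earlier results of these data known, so they are not an independent check of the members. In Tfh5 minus TfhA 81 were lower and 9 higher (median log2 difference -0.43), in TfhA minus Th1 87 were higher and 3 lower (median 0.38), and in Tfh5 minus Th1 43 were lower and 35 higher (median -0.05). Of all tested genes, 30.1% were lower and 27.4% higher in Tfh5 minus TfhA. In TfhA minus Th1 23.2% were higher and 21.6% lower, and in Tfh5 minus Th1 33.0% were lower and 31.5% higher, near the shares of these lists. For the 49 other small subunit factors 29 were lower and 1 higher in Tfh5 than in TfhA, among them Lyar (83.4 ± 20.0 CPM in TfhA and 33.4 ± 5.9 in Tfh5) and the RNA acetyltransferase Nat10 (63.8 ± 4.9 and 35.5 ± 6.6). Of the 48 other large subunit factors 30 were lower and 3 higher, with Rpf2, which carries the 5S ribonucleoprotein, at 67.5 ± 10.9 CPM in TfhA and 31.1 ± 4.1 in Tfh5. The RNA exosome, which trims precursor RNA, had 10 of 13 genes lower and 0 higher, with its nuclease gene Dis3 at 123 ± 9 and 59.0 ± 6.0 CPM. The snoRNP assembly list had 9 of 10 lower and 0 higher and the lowest median of the 5 lists (-0.94), with the AAA ATPase gene Ruvbl2 at 119 ± 9 and 53.8 ± 10.1 CPM. The exosome list also held genes with another course: its cofactor gene Mphosph6 was at 64.3 ± 2.6 CPM in Th1, 22.8 ± 4.8 in TfhA and 16.4 ± 3.6 in Tfh5, while C1d was at 32.8 ± 3.1, 60.3 ± 8.8 and 60.9 ± 7.6.

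The remaining polymerase I genes had calls in both directions. In Tfh5 minus TfhA their counts do not set so short a list apart from all tested genes. Of 14, 3 were lower and 5 higher in Tfh5 than in TfhA, and 8 were higher and 3 lower in Tfh5 than in Th1 (median 0.47). Of all tested genes, 30.1% were lower and 27.4% higher in Tfh5 than in TfhA, and 31.5% higher and 33.0% lower in Tfh5 than in Th1. Baz2a, part of a complex that silences ribosomal DNA repeats, was at 158 ± 13 CPM in Th1, 105 ± 14 in TfhA and 153 ± 22 in Tfh5, thus lowest in TfhA. The deacetylase gene Sirt7 was at 49.1 ± 9.1, 54.2 ± 8.7 and 77.6 ± 10.3 CPM. The subunit gene Polr1g (listed as Cd3eap) was at 23.7 ± 2.8, 32.1 ± 4.0 and 18.1 ± 2.5 CPM, and the subunit gene Polr1h (listed as Znrd1) at 81.4 ± 6.2, 87.5 ± 10.2 and 127 ± 6. Of the 21 polymerase III genes 7 were lower and 3 higher in Tfh5 than in TfhA (median -0.07), and the share lower was near that of all tested genes. Polr3g, a subunit typical of growing cells, was at 29.1 ± 2.7, 35.5 ± 1.2 and 17.1 ± 2.1 CPM. Among 39 translation factor genes 21 were lower and 1 higher in Tfh5 than in TfhA (median -0.41). In TfhA minus Th1 11 of these were higher and 5 lower (median 0.10), against 23.2% and 21.6% of all tested genes. Eif5a, the elongation factor that carries hypusine, was at 423 ± 55 CPM in Th1, 437 ± 35 in TfhA and 182 ± 3 in Tfh5.

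Myc, the transcription factor best known for driving ribosome biogenesis genes, had another order than most of the 45 genes. Its level was 663 ± 37 CPM in Th1, 466 ± 67 in TfhA and 291 ± 41 in Tfh5, so it was lower in TfhA than in Th1 (log2 difference -0.51 ± 0.11, adjusted p = 0.000378) where 30 members were higher. From TfhA to Tfh5 Myc fell by 0.68 ± 0.11 on the log2 scale (adjusted p = 5.26e-06), where 41 members were also lower. Polr1c, Noc4l and Nop2 had the same order of means as Myc. Of these, only Polr1c passed as lower in TfhA than in Th1, and the Th1 and TfhA means of Nop2 were nearly equal. Whether Myc had a part in the levels of the members was not tested. Mxd4 and Mxd1, which compete with Myc for Max, were highest in Tfh5, Mxd4 at 8.20 ± 2.10, 6.07 ± 1.38 and 48.2 ± 4.2 CPM and Mxd1 at 160 ± 8, 109 ± 6 and 268 ± 23 CPM in Th1, TfhA and Tfh5. Other genes of the network had other orders: Mxd3, of the same family, was highest in TfhA, at 10.04 ± 2.41, 21.3 ± 4.3 and 8.79 ± 0.96 CPM. Mxi1, another competitor for Max, was highest in Th1, at 221 ± 5, 84.0 ± 9.6 and 102 ± 10 CPM. Mycn, a relative of Myc, was also highest in Th1, at 28.9 ± 3.0, 5.19 ± 2.24 and 0.13 ± 0.08 CPM. Of the 10 genes of this network 4 were higher and 3 lower in Tfh5 than in TfhA, against 27.4% and 30.1% of all tested genes. Among 10 genes of the p53 response, which is known to follow nucleolar stress, 3 were higher and 5 lower in Tfh5 than in TfhA. Lists this short are not set apart from those shares by their counts. Cdkn1a was at 509 ± 63, 194 ± 30 and 37.0 ± 4.6 CPM and Gadd45a at 3.61 ± 1.32, 4.65 ± 1.11 and 41.2 ± 6.6 CPM in the same order.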

How the data were processed

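Bulk RNA was sequenced in 14 libraries of mouse CD4 T cells. The authors deposited raw counts, 1 row for each Entrez identifier, and the submitters' processing notes list STAR 2.7.2b, featureCounts 1.6.4 and mm10. Strand use, annotation and the handling of reads with several matches: not given in the sources used here. All values of the series table were identical to the 14 files of single samples. Rows whose identifier has no symbol held 1.91% of all counts and stayed in the fit. Symbols and gene positions come from the RefSeq annotation of GRCm38.p6.

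Counts of all 14 libraries entered 1 fit with group means in edgeR 4.0.16 (R 4.3.3, limma 3.58.1), after filterByExpr (13075 genes) and TMM scaling. Each of 3 comparisons had a two-sided quasi-likelihood F test, and calls were made at 0.05 after Benjamini-Hochberg adjustment over all tested genes. The calculation was tested on simulated data. CPM are scaled by TMM, errors are the SD over libraries or the fitted SE, and levels between genes are per kb of coding sequence, because annotated transcripts of several members carry very long ends. The common biological coefficient of variation was 14.3%. No library was a repeat of another: over 26 pairs within groups, chi-square divided by its degrees of freedom was 4.15 to 30.6 on genes of at least 10 counts. Near-identical copies are annotated transcripts of at least 95% identity over at least 300 bases (blastn, GENCODE M21).

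The members and lists were chosen with earlier results of these data known. Every library is given for the member of each role with the highest level per kb and the one with the largest change in Tfh5 minus TfhA. Fold changes are given for the 5 largest and 3 smallest changes per comparison, all members that did not pass and all that went against the majority. From other lists, the genes named are among the 3 called genes of the largest change with at least 5 CPM. Values of the remaining members, Mxd1 and Myc in single comparisons, and Ccnd3 were added after they were seen. Alternatives were other scalings, no filter, DESeq2 1.42.0, fits of 2 groups, a replicate block, no mitochondrial genes, each library left out, and a 1.5-fold minimum.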

Additional observations from a re-analysis of the deposited data

Results flagged for a closer look

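In 7 of 135 sets of libraries (45 genes in 3 groups) the highest library stood apart from the others of its group by Dixon's test, which chance gives in about 1 in 20 sets. In Th1 replicate 1 these were Tcof1 at 184 CPM (others 134 to 148), Rrp9 at 18.2 (13.6 to 14.8), Noc4l at 119 (86.4 to 94.8), Nob1 at 98.9 (71.6 to 75.3) and Pes1 at 74.3 (58.7 to 62.4). Th1 replicate 1 was also the deepest library, with the lowest mitochondrial share of its group (4.46%, others 5.74% to 6.56%). Chi-square divided by its degrees of freedom was 22.9 to 30.6 for its pairs and 4.15 to 9.81 for the other Th1 pairs. Sets that share a library are not independent, so the rate of 1 in 20 does not describe flags gathered in it. Ddx21 stood at 219 CPM in Th1 replicate 3 (others 181 to 189) and Nop56 at 151 CPM in TfhA replicate 4 (others 121 to 126).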

How the results depend on the processing

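Under other scalings, DESeq2, no filter, 2-group fits, no mitochondrial genes and a replicate block, no member that passed changed direction. Leaving out 1 library at a time gave 39 to 42 members lower and 1 higher in Tfh5 minus TfhA, 27 to 32 higher and 1 to 2 lower in TfhA minus Th1, and 20 to 22 lower and 3 higher in Tfh5 minus Th1. With library totals 1 member was lower in TfhA than in Th1. Deviations of 13 same-numbered pairs of libraries correlated at -0.048 to 0.16, 1 of them over 0.1. Pairs with different numbers ranged more widely, from -0.37 to 0.33. This measure thus showed no pairing by replicate number and cannot exclude a shared animal or batch. With the replicate block 41 members were lower in Tfh5 than in TfhA, 30 were higher in TfhA than in Th1 and 21 were lower in Tfh5 than in Th1. A minimum of 1.5-fold left 0 members higher and 29 of 41 lower in Tfh5 minus TfhA, 13 higher and 0 lower in TfhA minus Th1 and 1 higher and 14 of 21 lower in Tfh5 minus Th1. Among all tested genes it left 2381 higher in Tfh5 minus TfhA and 1492 higher and 1786 lower in TfhA minus Th1. The other counts of all tested genes at 1.5-fold are not given, so 29 of 41 and 14 of 21 have no background here. With a 2-fold minimum, 9 members and 1716 of all 13075 tested genes were lower in Tfh5 minus TfhA. In Tfh5 minus Th1 these were 0 members and 1994 tested genes. Without members that have a pseudogene copy, 0 were higher in Tfh5 minus TfhA and 1 in Tfh5 minus Th1.

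The sign changed only in differences that did not pass, and the cause was not tested. In TfhA minus Th1, leaving out single libraries gave log2 differences of -0.0039 to 0.14 for Npm1, -0.011 to 0.30 for Rrp9, -0.0036 to 0.13 for Rrp12, -0.086 to 0.087 for Nop2 and -0.20 to 0.15 for Nle1. Nop2 was at 0.056 with library totals, and Nle1 at -0.0044 with no filter and -0.0028 with the replicate block. In Tfh5 minus Th1 the ranges were -0.021 to 0.067 for Ncl, -0.053 to 0.082 for Heatr1, -0.088 to 0.025 for Wdr75, -0.13 to 0.039 for Imp3 and -0.064 to 0.10 for Imp4. Heatr1 was at -0.011 with DESeq2 or its size factors, -0.021 with no filter, -0.0017 with the replicate block and -0.014 with upper-quartile factors. Wdr75 was at 0.0024 with library totals, 0.0029 without mitochondrial genes and 0.0050 with 2 groups, and Imp4 at -0.0013 with no filter. Depth limits Fbl, Ddx18, Rrp9 and Nle1 most, the members of the lowest levels.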
